A study of Mus musculus with 4 samples.

Results

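The embryonic globin genes *Hba-x*, *Hbb-y* and *Hbb-bh1* and 5 regulators of globin switching, *Klf1*, *Zbtb7a*, *Sox6*, *Myb* and *Lin28b*, were examined in GMPs and MPPs with and without Bcl11a. These 8 genes, of 19938 genes with a probe set of their own, were chosen by symbol for their roles, with their differences on these same arrays already known. Those differences are therefore a description. The gene lists used below were also chosen with earlier results of these data known, so their counts are a description too. In *Bcl11a*-/- cells the alpha-like embryonic gene *Hba-x* was 13.8-fold higher in GMPs and 9.02-fold higher in MPPs. *Klf1* was 3.23-fold higher in *Bcl11a*-/- GMPs, and the other regulators were within 2-fold in both populations.

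Each of 4 groups was represented by 1 array: *Bcl11a*-/- GMPs, WT GMPs, *Bcl11a*-/- MPPs and WT MPPs. All cells were donor derived and came from the BM of B6.SJL mice that were irradiated with 1200 rad, received *Bcl11a*-/- or WT fetal liver cells and were taken 4 weeks later. The labels give B6.SJL as the genetic background of all 4 samples, which in the study's methods is the strain of the irradiated recipients. Those methods name a later time for some chimeras as well. The null allele is a germline deletion of the first exon, present in every donor cell. MPPs were CD150-negative LSK cells, which can still form all blood lineages, and GMPs form granulocytes and macrophages. Sorted cells were pooled by donor genotype, and the number of mice behind a pool was not stated in the sources used. GMPs and MPPs of a genotype came from the same BM, so the GMP and MPP differences are not independent of each other. With 1 array per group no difference has a replicate check, SD or p-value.

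Hemoglobin is a tetramer of alpha-like and beta-like chains, and both gene clusters switch during development. In the mouse embryo, primitive red cells use zeta globin (*Hba-x*) with the beta-like chains epsilon-y (*Hbb-y*) and beta-h1 (*Hbb-bh1*), and definitive red cells of fetal liver and BM use the adult genes. Bcl11a is a repressor of embryonic and fetal beta-like genes in red cells, and Sox6 and Zbtb7a act in the same silencing. MPPs lie upstream of that lineage and GMPs beside it. In such bulk samples, fewer cells of a type and less RNA per cell cannot be told apart.

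The deposited values were log2 signals after RMA with quantile normalization, and a difference of 1 is 2-fold. They carry no detection call, so signals were set beside those of 1027 olfactory receptor genes, whose 95th percentile was 4.96 in *Bcl11a*-/- GMPs, 5.01 in WT GMPs, 5.36 in *Bcl11a*-/- MPPs and 5.17 in WT MPPs. Signals under that level are called background. *Bcl11a* was lower in the null cells, at 7.77 in *Bcl11a*-/- and 8.6 in WT GMPs and at 8.64 in *Bcl11a*-/- and 9.89 in WT MPPs, although probes outside the deleted exon can still detect a transcript. Of 15 GMP genes, 9 were over 2-fold higher in GMPs than in MPPs in WT cells and 9 in *Bcl11a*-/- cells, beside 2.8% and 5.82% of all genes. Of 13 measured MPP genes, 3 were over 2-fold lower in GMPs in WT cells and 7 in *Bcl11a*-/- cells, beside 1.33% and 2.36%. No GMP gene was over 2-fold lower in GMPs, and no MPP gene was over 2-fold higher there. Between genotypes, 6 of the 15 GMP genes were over 2-fold lower in *Bcl11a*-/- MPPs (*Elane*, *Prtn3*, *Ctsg*, *Ms4a3*, *Nkg7* and *Ly86*), beside 2.02% of all genes. None was over 2-fold higher there, beside 0.908% of all genes. The mean signal of the list was 8.51 in *Bcl11a*-/- MPPs, against 9.37 in WT MPPs. In GMPs that mean was 10.53 in *Bcl11a*-/- and 10.65 in WT cells. There 1 of the 15 genes was over 2-fold lower, *Ly86*, at 8.13 in *Bcl11a*-/- and 9.35 in WT cells, beside 0.281% of all genes. None was over 2-fold higher in GMPs, beside 0.361%. Of the 13 MPP genes, 1 was over 2-fold higher and 1 lower in *Bcl11a*-/- than in WT MPPs, beside 0.908% and 2.02% of all genes. In GMPs none of the 13 was over 2-fold higher or lower, beside 0.361% and 0.281%. B lineage genes were over 2-fold lower without Bcl11a, 11 of 11 measured in MPPs and 6 of 11 in GMPs, beside 2.02% and 0.281% of all genes. The part of these shifts in the values below was not tested.

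*Hba-x* (probe set 10375046), which encodes the zeta chain, separated the genotypes in both populations. Its log2 signal was 9.3 in *Bcl11a*-/- GMPs and 5.52 in WT GMPs. It was 9.16 in *Bcl11a*-/- MPPs and 5.99 in WT MPPs. Both *Bcl11a*-/- arrays thus lay above both WT arrays, and the populations of 1 genotype lay close together, with a GMP minus MPP difference of 0.15 in *Bcl11a*-/- cells and -0.47 in WT cells. The log2 difference between *Bcl11a*-/- and WT cells was 3.79 in GMPs and 3.17 in MPPs. In each population this was rank 1 of the 19938 genes, ordered from the highest difference down. All 4 *Hba-x* signals were above background. Across all the processing alternatives tried, its difference stayed between 3.78 and 3.82 in GMPs and between 3.13 and 3.25 in MPPs.

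**Figure D1:**
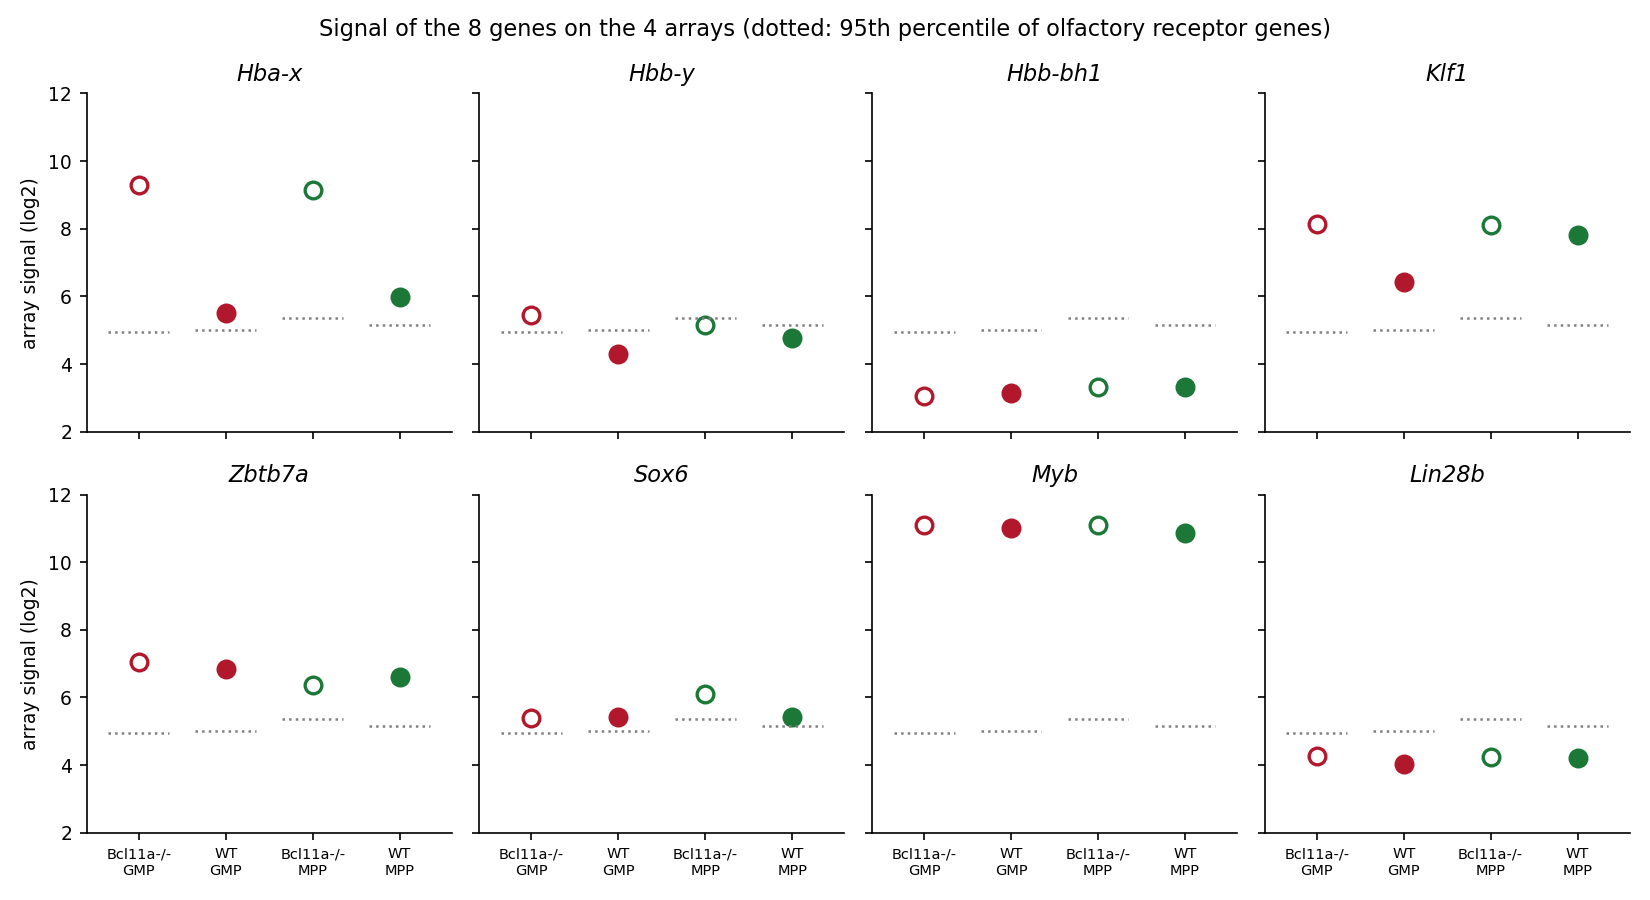
Log2 array signal (vertical axis) of each of the 8 genes on the 4 arrays, with *Bcl11a*-/- cells as open and WT cells as filled circles, GMPs in red and MPPs in green, 1 array per circle; dotted marks are the 95th percentile of olfactory receptor genes on that array. *Hba-x* is at 9.3 and 9.16 on the *Bcl11a*-/- arrays and at 5.52 and 5.99 on the WT arrays, and *Hbb-bh1* and *Lin28b* are below the dotted marks on all 4.

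The beta-like embryonic genes did not share these values. *Hbb-y* (probe set 10566272), which encodes the epsilon-y chain, had a log2 signal of 5.45 in *Bcl11a*-/- GMPs and 4.31 in WT GMPs. In MPPs it was 5.17 in *Bcl11a*-/- cells and 4.77 in WT cells. Only the *Bcl11a*-/- GMP signal was above background. The difference was 1.14 in GMPs (2.2-fold higher in *Bcl11a*-/- cells, rank 53) and 0.4 in MPPs (rank 2664). The GMP difference was 0.45 when signals under 5 were set to 5, so its size rests on a WT signal at background. *Hbb-bh1* (probe set 10566268), the gene of the beta-h1 chain, was at 3.07 in *Bcl11a*-/- and 3.15 in WT GMPs and at 3.31 in *Bcl11a*-/- and 3.33 in WT MPPs, all at background. A difference in this gene was not detectable on these arrays.

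The upstream sequences of *Hba-x* and *Hbb-y*, the embryonic globin genes with a value over 2-fold, are shown with those of the adult gene *Hba-a1* and of *Klf1*, since Bcl11a is known to bind the letters TGACCA in the human fetal globin promoters. Each line gives the 250 bases before the gene's start, 5′ to 3′ on the gene's strand, from RefSeq on GRCm38.p6. Capitals mark a match on either strand to the CACCC-type element CCNCNCCC of the kind Klf1 binds, the Bcl11a motif TGACCA, the GATA element with either spelling (AGATAA and also TGATAA), the CCAAT box, the TATA box spelled TATAAA, and the SOX element AACAAT. The windows are chr11:32276350-32276599, plus strand, for *Hba-x*, chr7:103853208-103853457, minus strand, for *Hbb-y*, chr11:32283422-32283671, plus strand, for *Hba-a1* and chr8:84901732-84901981, plus strand, for *Klf1*.
Hba-x: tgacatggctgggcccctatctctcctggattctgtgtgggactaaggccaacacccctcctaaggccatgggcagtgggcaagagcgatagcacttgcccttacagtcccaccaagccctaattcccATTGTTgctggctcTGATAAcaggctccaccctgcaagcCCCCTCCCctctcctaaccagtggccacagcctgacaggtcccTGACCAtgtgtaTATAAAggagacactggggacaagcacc
Hbb-y: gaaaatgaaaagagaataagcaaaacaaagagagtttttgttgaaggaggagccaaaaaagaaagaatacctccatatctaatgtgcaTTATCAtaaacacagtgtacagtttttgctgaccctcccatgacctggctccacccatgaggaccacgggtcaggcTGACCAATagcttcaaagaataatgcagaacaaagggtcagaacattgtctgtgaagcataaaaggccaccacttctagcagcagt
Hba-a1: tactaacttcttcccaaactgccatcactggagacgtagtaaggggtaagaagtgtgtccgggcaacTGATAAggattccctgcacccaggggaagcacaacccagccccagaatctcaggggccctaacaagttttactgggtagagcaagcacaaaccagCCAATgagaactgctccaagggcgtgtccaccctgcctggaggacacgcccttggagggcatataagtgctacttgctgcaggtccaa
Klf1: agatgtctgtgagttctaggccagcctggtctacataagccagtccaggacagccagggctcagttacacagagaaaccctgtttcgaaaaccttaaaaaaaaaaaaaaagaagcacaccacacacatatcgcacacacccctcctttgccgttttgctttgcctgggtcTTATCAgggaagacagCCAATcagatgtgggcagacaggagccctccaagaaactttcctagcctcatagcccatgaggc

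The *Hba-x* window held TGACCA with its first base at -40 from the start, between a TATAAA at -28 and a CCNCNCCC at -83, with a TGATAA at -108 and AACAAT on the opposite strand at -122. The *Hbb-y* window held TGACCA at -86, and its last letters are the first of a CCAAT at -83. Its other match was TGATAA at -162 on the opposite strand. The *Hba-a1* window held a CCAAT at -88 and a TGATAA at -183 and no TGACCA, and that of *Hba-a2* held the same elements at -91 and -186. The *Klf1* window held TGATAA at -80 on the opposite strand and CCAAT at -64. Among 32851 promoter windows of the same length, TGACCA occurred in 11.4%, CCNCNCCC in 45.9%, AGATAA in 9.99%, TGATAA in 7.94%, CCAAT in 33.8%, TATAAA in 12.4% and AACAAT in 9.42%. Of the 8 genes, 7 had a promoter entry and *Hbb-bh1* did not. These are matches of letters, and binding was not measured here.

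The array held 10 globin probe sets, 6 of them with 1 symbol and 4 with several. Of the 4, 2 name *Hba-a1* and *Hba-a2*, the adult alpha genes, and 2 name *Hbb-bt*, *Hbb-bs*, *Hbb-b1* and *Hbb-b2*, the adult beta genes, so the adult copies cannot be told apart here. The adult alpha probe set 10375051 was at 12.72 in *Bcl11a*-/- GMPs and 12.5 in WT GMPs, and at 12.4 in *Bcl11a*-/- MPPs and 13.2 in WT MPPs. The adult alpha probe set 10375058 was at 12.47 in *Bcl11a*-/- and 12.25 in WT GMPs, and at 12.16 in *Bcl11a*-/- and 12.91 in WT MPPs. Adult alpha signal was thus slightly higher in *Bcl11a*-/- than in WT GMPs, by 0.22 for both probe sets, and lower in *Bcl11a*-/- than in WT MPPs, by 0.8 and 0.75 (1.74-fold and 1.68-fold). For the adult beta probe sets the signals were 12.54 and 12.5 in *Bcl11a*-/- GMPs and 12.4 and 12.39 in WT GMPs. In MPPs they were 12.04 and 11.93 in *Bcl11a*-/- cells and 12.41 and 12.58 in WT cells. None of the 4 adult probe sets differed by more than 2-fold in either population. Their signals lay near the top of the deposited values, whose maximum was 13.98, and whether differences are compressed there was not tested. High adult globin signal was present on every array, including those of WT cells in which *Hba-x* was lowest, and its source was not tested.

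The remaining globin genes were also within 2-fold. *Hbq1b*, a theta globin gene of the alpha cluster, was at 6.18 in *Bcl11a*-/- and 5.76 in WT GMPs, and at 6.7 in *Bcl11a*-/- and 5.85 in WT MPPs, a difference of 0.42 and 0.84. *Hbq1a*, its near copy, was at background on all 4 arrays, with differences of 0.78 in GMPs and 0.26 in MPPs. *Hbb-bh2*, a beta-like gene next to the embryonic pair, was at background as well, with differences of -0.22 and -0.07. Within the alpha cluster *Hba-x* was the only probe set over 2-fold, and within the beta cluster *Hbb-y* was the only one.

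**Figure D2:**
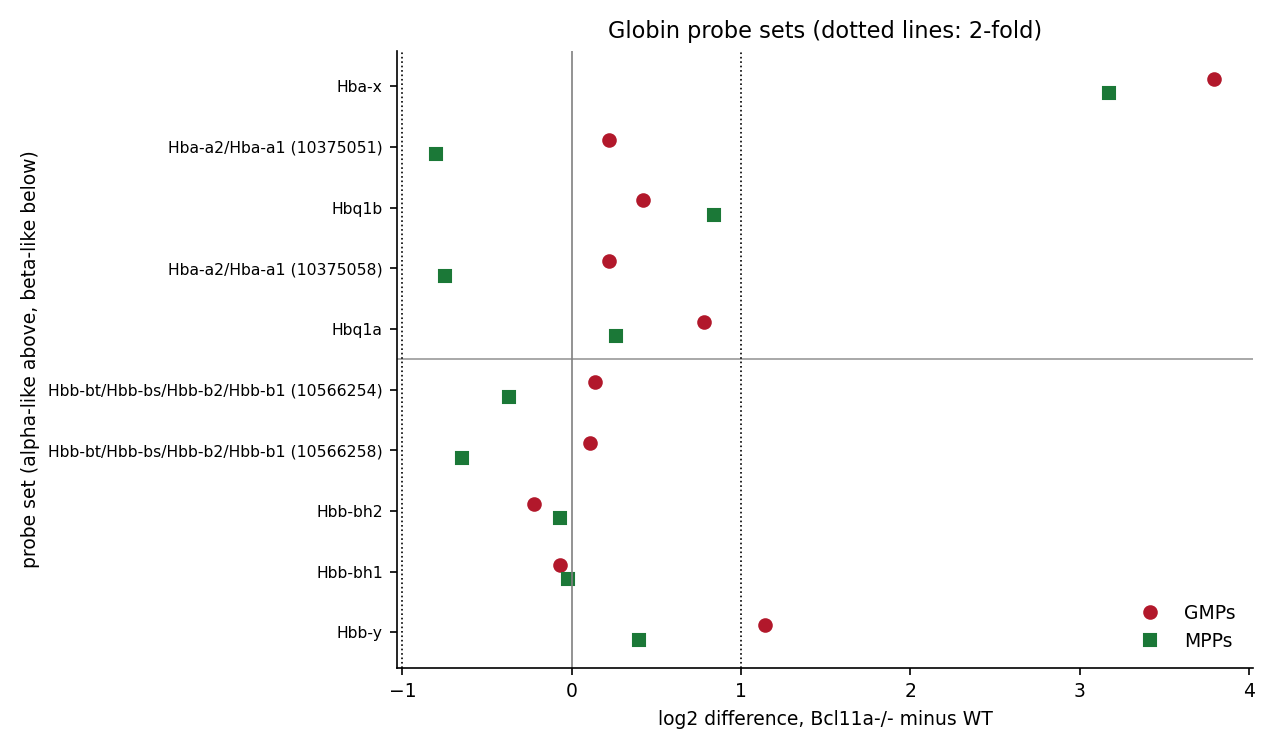
Log2 difference between *Bcl11a*-/- and WT cells (horizontal axis) for the 10 globin probe sets, alpha-like above and beta-like below the grey line, with GMPs as red circles and MPPs as green squares, 1 array per group. *Hba-x* lies at 3.79 in GMPs and 3.17 in MPPs, while the adult alpha probe sets lie at 0.22 in GMPs and at -0.8 and -0.75 in MPPs.

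*Klf1* (probe set 10573457), an erythroid transcription factor that activates adult beta globin and, in human and mouse red cells, *Bcl11a* itself, differed by genotype in GMPs. Its log2 signal was 8.13 in *Bcl11a*-/- GMPs and 6.44 in WT GMPs, against 8.12 in *Bcl11a*-/- MPPs and 7.82 in WT MPPs. The WT GMP array was the low one, and the other 3 lay close together. The difference was 1.69 in GMPs (rank 13) and 0.3 in MPPs (1.23-fold, rank 4192). WT GMPs were 2.6-fold lower than WT MPPs, and in *Bcl11a*-/- cells the GMP minus MPP difference was 0.02. The genotype difference was 1.4 log2 units larger in GMPs than in MPPs, and no test of that gap was possible with 1 array per group.

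The other transcription factors differed less. *Zbtb7a* (probe set 10364984), which encodes the repressor LRF that silences fetal globin genes in human red cells, was at 7.05 in *Bcl11a*-/- and 6.84 in WT GMPs, and at 6.36 in *Bcl11a*-/- and 6.6 in WT MPPs. *Sox6* (probe set 10567108), a partner of Bcl11a in silencing, was at 5.38 in *Bcl11a*-/- and 5.43 in WT GMPs, and at 6.1 in *Bcl11a*-/- and 5.43 in WT MPPs. Its *Bcl11a*-/- MPP array stood above the other 3, and the MPP difference of 0.68 (1.6-fold) was rank 690. *Myb* (probe set 10368199), a progenitor transcription factor whose reduction in human erythroid cells goes with more fetal hemoglobin, was at 11.1 in *Bcl11a*-/- and 11.02 in WT GMPs, and at 11.1 in *Bcl11a*-/- and 10.85 in WT MPPs. Its 4 signals spanned 0.25, and those of *Zbtb7a* and *Sox6* spanned 0.69 and 0.72. These 3 genes were above background on all 4 arrays.

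*Lin28b* (probe set 10368981), an RNA-binding protein of fetal progenitors that blocks let-7 processing, was at background throughout. It was at 4.27 in *Bcl11a*-/- and 4.02 in WT GMPs, and at 4.25 in *Bcl11a*-/- and 4.22 in WT MPPs. Of 17 measured genes of the let-7 axis and fetal RNA-binding factors, none differed by more than 2-fold in either population. Over all genes, 0.361% were over 2-fold higher and 0.281% lower in GMPs, and 0.908% and 2.02% in MPPs. With shares this small, a count of none in a list of this size says little. The list medians were -0.06 in GMPs and 0.05 in MPPs. Only 10 of the 17 were above background on all 4 arrays, so a difference in the others may not have been detectable. The 2 with the largest differences in GMPs were *Igf2bp3* and *Mirlet7e*. *Igf2bp3*, a fetal RNA-binding protein, was at 6.62 in *Bcl11a*-/- and 7.5 in WT GMPs (-0.88). *Mirlet7e* was at 4.96 in *Bcl11a*-/- and 4.51 in WT GMPs (0.45), with the WT signal at background. In MPPs *Igf2bp3* was at 5.98 in *Bcl11a*-/- and 6.87 in WT cells, a difference of -0.9. *Atf4*, a stress-response transcription factor, was at 8.7 in *Bcl11a*-/- and 9.6 in WT MPPs (-0.9), and *Igf2bp1*, a relative of *Igf2bp3*, was at background on all 4 arrays, at 4.76 in *Bcl11a*-/- and 3.85 in WT MPPs (0.9). *Hmga2*, a let-7 target, was at 7.06 in *Bcl11a*-/- and 7.14 in WT GMPs and at 8.54 in *Bcl11a*-/- and 8.38 in WT MPPs. These probe sets detect let-7 precursors and not the mature miRNAs.

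Of the 8 genes, 3 were over 2-fold higher in *Bcl11a*-/- GMPs (*Hba-x*, *Klf1* and *Hbb-y*) and none was lower, against 0.361% of all genes higher and 0.281% lower. In MPPs 1 was higher (*Hba-x*) and none was lower, against 0.908% and 2.02% of all genes. Since the genes were chosen with these differences known, nothing is read from the counts. The median difference of the 8 genes was 0.23 in GMPs and 0.27 in MPPs, beside 0.01 and 0.05 over all genes. *Hba-x* was one of 15 genes over 2-fold higher in both *Bcl11a*-/- populations. Between populations, *Klf1* alone was over 2-fold lower in WT GMPs than in WT MPPs and none of the 8 was higher, against 1.33% and 2.8% of all genes. In *Bcl11a*-/- cells none of the 8 was over 2-fold lower or higher in GMPs than in MPPs, against 2.36% and 5.82% of all genes. The genotype and population comparisons share arrays.

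**Figure D3:**
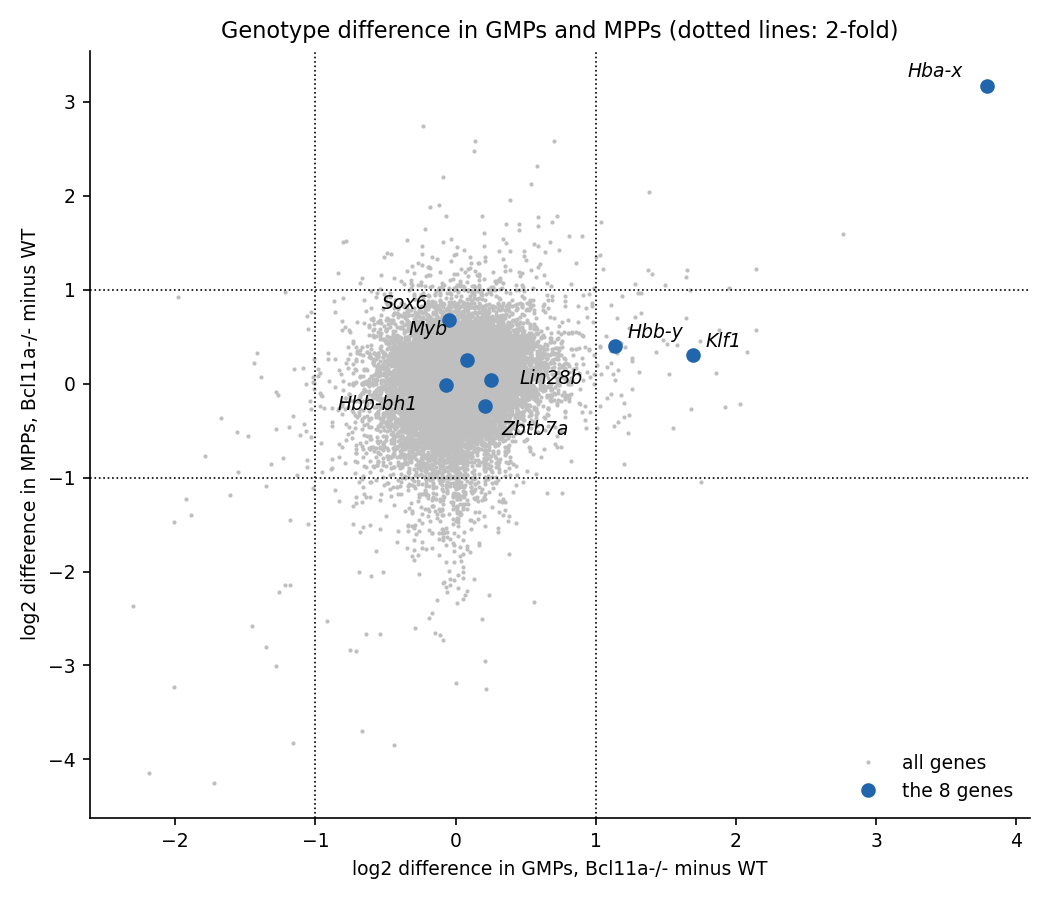
Log2 difference between *Bcl11a*-/- and WT cells in GMPs (horizontal axis) against that in MPPs (vertical axis), 1 grey point per gene for 19938 genes, with the 8 genes in blue and dotted lines at 2-fold. *Hba-x* lies at 3.79 and 3.17, *Klf1* at 1.69 and 0.3, and *Hbb-y* at 1.14 and 0.4.

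Some erythroid genes outside the globin clusters were, like *Klf1*, higher in *Bcl11a*-/- GMPs. Of 27 measured erythroid identity genes, 11 were over 2-fold higher there, beside 0.361% of all genes, and 16 lay within 2-fold. None was over 2-fold lower, beside 0.281% of all genes. The list median was 0.83, beside 0.01 over all genes. As for the 8 genes, the list was chosen with earlier results of these data known, so nothing is read from its counts. *Car1*, a carbonic anhydrase of red cells, was at 12.46 in *Bcl11a*-/- and 10.38 in WT GMPs. *Rhag*, an Rh-associated glycoprotein, was at 7.36 in *Bcl11a*-/- and 5.21 in WT GMPs. *Ermap*, an erythroblast membrane protein, was at 8.09 in *Bcl11a*-/- and 6.35 in WT GMPs. The mean signal of the 27 genes was 7.43 in *Bcl11a*-/- and 6.52 in WT GMPs, and 7.44 in *Bcl11a*-/- and 7.14 in WT MPPs, so that WT GMPs were lowest here as for *Klf1*. The other genes over 2-fold in GMPs were *Aqp1* (1.92), *Cldn13* (1.75), *Car2* (1.32), *Gfi1b* (1.32), *Ank1* (1.26), *Tspo2* (1.26), *Rhd* (1.16) and *Gata1* (1.03).

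None of the 27 erythroid genes was over 2-fold higher in *Bcl11a*-/- MPPs, beside 0.908% of all genes. There 1 was lower, beside 2.02% of all genes: *Cldn13*, at 6.79 in *Bcl11a*-/- and 7.84 in WT cells. The list median was 0.39, beside 0.05 over all genes. The erythroid genes nearest to 2-fold higher were *Car2* at 0.96 and *Hemgn* at 0.95. When the MPP arrays were quantile normalized anew, these 2 were over 2-fold and *Cldn13* was not. How far red cell precursors among the sorted cells contribute to the signal of *Hba-x* or *Klf1* was not tested. The 13 genes of erythroblastic island macrophages, which red cell precursors surround in BM, were within 2-fold in both populations. Over all genes, 0.361% were over 2-fold higher and 0.281% lower in GMPs, and 0.908% and 2.02% in MPPs. The medians of the macrophage genes were -0.04 in GMPs and 0.03 in MPPs. Only 4 of the 13 were above background on all 4 arrays, so a difference in the others may not have been detectable. Of 9 measured megakaryocyte genes, 1 was over 2-fold higher in *Bcl11a*-/- GMPs (*Ppbp*) and 1 in *Bcl11a*-/- MPPs (*Pf4*), beside 0.361% and 0.908% of all genes. None was over 2-fold lower, beside 0.281% and 2.02%. *Ppbp* was at 5.43 in *Bcl11a*-/- and 3.57 in WT GMPs, and *Pf4* at 6.05 in *Bcl11a*-/- and 4.85 in WT MPPs. Both of these WT signals were at background, so the size of these differences is uncertain. In GMPs *Pf4* was above background, at 7.59 in *Bcl11a*-/- and 7.94 in WT cells. The megakaryocyte median was 0.18 in GMPs and 0.35 in MPPs, beside 0.01 and 0.05 over all genes. Only 6 of the 9 megakaryocyte genes were above background on all 4 arrays. Of 12 mast cell, basophil and eosinophil genes none was over 2-fold higher, beside 0.361% of all genes in GMPs and 0.908% in MPPs. *Epx* (-1.98) and *Prg3* (-1.02) were over 2-fold lower in *Bcl11a*-/- GMPs, beside 0.281% of all genes. *Prg2* (-1.3) was over 2-fold lower in *Bcl11a*-/- MPPs, beside 2.02%.

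Among 36 nuclear factors tied to globin switching, all above background on every array, 3 were over 2-fold higher in *Bcl11a*-/- GMPs, beside 0.361% of all genes. None was lower, beside 0.281%, and the median was 0.09. Of the 3, *Gfi1b* and *Gata1* are also on the erythroid identity list and were counted there. *Gfi1b*, a repressor of erythroid and megakaryocyte cells, was at 8.67 in *Bcl11a*-/- and 7.34 in WT GMPs, and at 9.47 in *Bcl11a*-/- and 8.72 in WT MPPs. *Gata2*, a progenitor GATA factor, was at 8.88 in *Bcl11a*-/- and 7.68 in WT GMPs, and at 8.49 in *Bcl11a*-/- and 7.56 in WT MPPs. *Gata1*, the main erythroid GATA factor, was at 7.47 in *Bcl11a*-/- and 6.44 in WT GMPs, and at 7.19 in *Bcl11a*-/- and 6.79 in WT MPPs. In MPPs *Bcl11a* itself (-1.25) was the only factor over 2-fold, beside 0.908% of all genes higher and 2.02% lower. The median there was 0.1. *Zfpm1*, which encodes the GATA1 cofactor FOG1, was within 2-fold, at 0.97 in GMPs and 0.83 in MPPs.

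**Figure D4:**
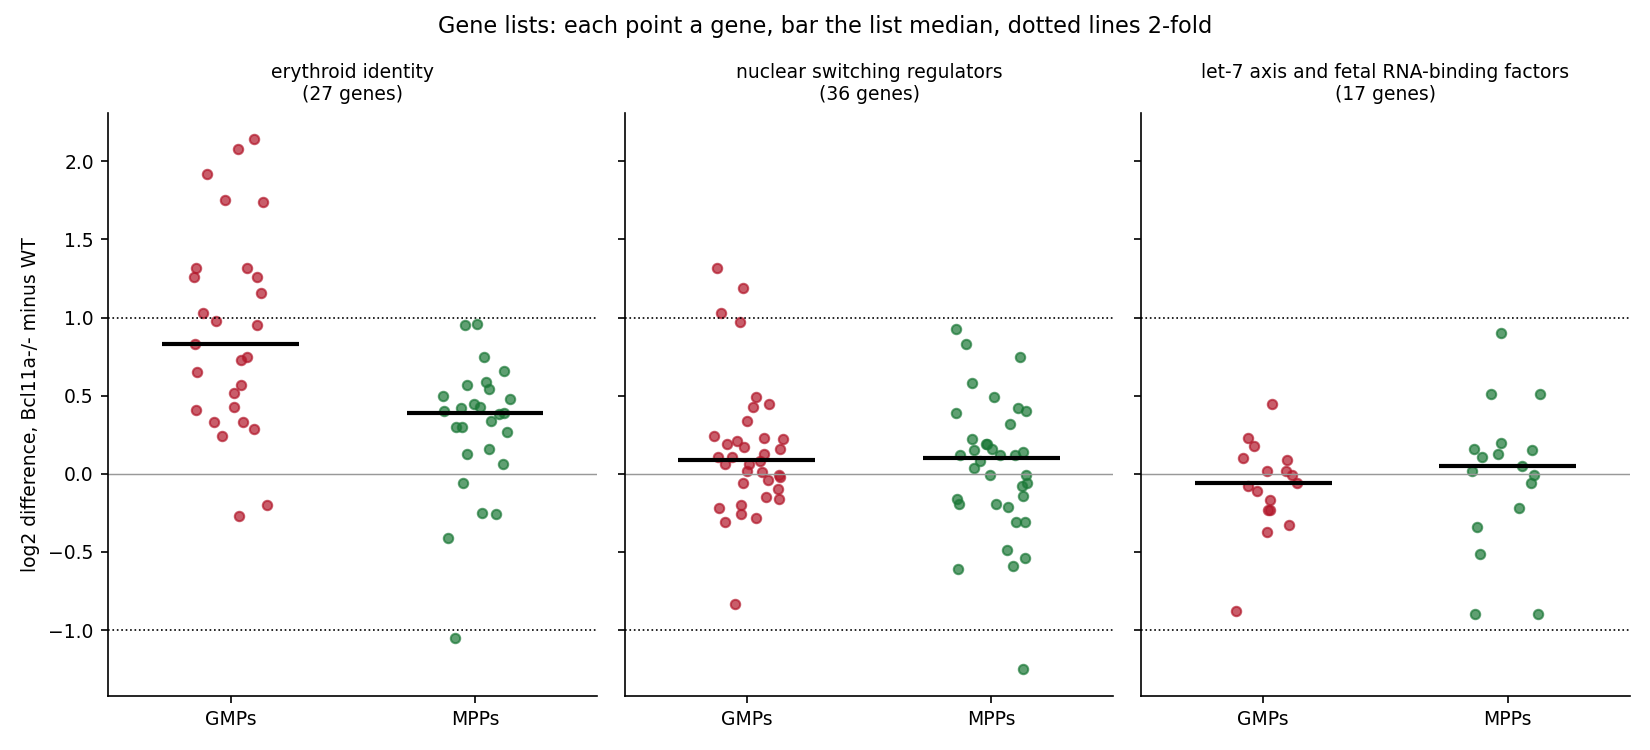
Log2 difference between *Bcl11a*-/- and WT cells (vertical axis) for 27 erythroid identity genes, 36 nuclear switching regulators and 17 genes of the let-7 axis, in GMPs (red) and MPPs (green); each point is a gene, black bars are list medians and dotted lines mark 2-fold. Erythroid genes have a median of 0.83 in GMPs and 0.39 in MPPs, while the other medians lie between -0.06 and 0.1.

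The genes whose 4 signals, each gene centred on its own mean, lay nearest to those of a member were found for *Hba-x*, *Klf1* and *Hbb-y* by Euclidean distance over the 4 arrays, among genes with a log2 signal of at least 6 on any array. For *Klf1* the 5 nearest of 10151 genes were *Ermap* (distance 0.25), *Ank1* (0.38), *Car1* (0.39), *Tnik* (0.41) and *Rhag* (0.42). For *Hbb-y* the nearest of 10152 genes were *Gata1* (0.1), *Tfr2* (0.1), *1700006J14Rik* (0.14), *Lpin2* (0.18) and *Anxa9* (0.21). *Hbb-y* itself was above background on 1 of the 4 arrays only, so its pattern rests largely on background signal. No gene came as close to *Hba-x*, whose nearest of 10151 genes were *Clca3a1* (1.5), *Rbpms2* (2.1), *Tlcd4* (2.13), *Rhag* (2.2) and *Hif3a* (2.25). *Clca3a1* was at 6.83 in *Bcl11a*-/- and 4.07 in WT GMPs, and at 7.08 in *Bcl11a*-/- and 5.49 in WT MPPs. Its WT GMP signal was at background, as were those of *Rbpms2* (4.96), *Tlcd4* (3.67) and *Hif3a* (4.86). The size of their differences in GMPs, and so their distance to *Hba-x*, is uncertain. These distances describe 4 arrays only and depend on the size of a gene's differences.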

How the data were processed

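GMPs and MPPs were sorted and pooled by donor genotype, and RNA was amplified, labeled with biotin and hybridized, 1 array per group. The authors deposited log2 signals, summarised by RMA and quantile normalized in ArrayStar (version not given in the sources used here). Quantile normalization can hide a change in total mRNA. The table held 30177 rows with values between 1.54 and 13.98, and every measured column was mapped to a sample. In the platform annotation 21789 probe sets have 1 symbol, 1621 have several and the others are unnamed here, among them 1329 with identifiers below the lowest annotated one, which were taken as controls. All 8 members matched RefSeq by Entrez identifier under the same symbol. Where a gene had several probe sets of its own they were averaged, and each member had 1.

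Log2 differences were taken as *Bcl11a*-/- minus WT and GMP minus MPP with pandas 2.3.3 in Python 3.11.15. Over 2-fold was the study's threshold. With 1 array per group no group has a measured spread. A model of genotype plus population would leave 1 residual degree of freedom, but it was not run, since the members were chosen with these differences known and the populations of a genotype share their BM. The number of arrays limits the precision.

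The members and the 10 gene lists were chosen with earlier results of these data known. Named genes are the members, globin probe sets with several symbols, *Bcl11a*, list genes over 2-fold (else up to 2 with the largest difference) and the 5 genes nearest to each member over 2-fold. For MPP and B lineage genes only counts are given. *Hmga2*, *Zfpm1* and *Hemgn* are named outside this rule, after their values were seen. The calculations were tested on simulated data. Alternatives were a floor at 5, a floor at the olfactory receptor 95th percentile, a minimum signal of 6, quantile normalization anew, median centring, lowess centring (span 0.3, statsmodels 0.14.6), the brightest probe set and a 1.5-fold threshold. For the GMP minus MPP comparison they were added after seeing the data.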

Additional observations from a re-analysis of the deposited data

Results flagged for a closer look

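With 1 array per group no sample could be set against others of its group. The following differences, *Bcl11a*-/- minus WT, had opposite signs in GMPs and MPPs, and the gap between the populations was not tested. *Zbtb7a* was 0.21 in GMPs and -0.24 in MPPs, a gap of 0.45, and *Sox6* was -0.05 and 0.68, a gap of -0.72. The adult alpha globin probe sets 10375051 and 10375058 had gaps of 1.02 and 0.97, and the adult beta globin probe sets 10566254 and 10566258 had gaps of 0.51 and 0.77, each positive in GMPs and negative in MPPs. Of the erythroid genes over 2-fold, *Cldn13* was 1.75 in GMPs and -1.05 in MPPs (gap 2.8), *Aqp1* 1.92 and -0.25 (gap 2.17), *Rhd* 1.16 and -0.41 (gap 1.57) and *Tspo2* 1.26 and -0.06 (gap 1.31).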

How the results depend on the processing

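*Hba-x* and *Klf1* kept their side of 2-fold in both populations under all alternatives tried. *Hbb-y* in GMPs fell within 2-fold at 0.45 with a floor at 5 and 0.44 with a floor at the olfactory receptor level. With a 1.5-fold threshold 2 of the 8 genes were over it in MPPs, with *Sox6* added, and 2 differed between *Bcl11a*-/- GMPs and MPPs. At 1.5-fold the counts in GMPs were 17 erythroid genes, 5 nuclear regulators, 1 let-7 axis gene and 1 of the 3 globins outside the members. In MPPs they were 6, 6, 3 and 1. At that threshold 2.02% of all genes were higher and 1.49% lower in *Bcl11a*-/- GMPs, and 5.18% and 6.86% in *Bcl11a*-/- MPPs. With the arrays quantile normalized anew, MPPs had 2 nuclear regulators and 2 erythroid genes over 2-fold. Lowess centring gave 2 erythroid genes in MPPs, and the brightest probe set gave 1 let-7 axis gene there. The other 82 counts stayed within 1.5 times, and 103 values of single members kept their side of the threshold while 2, those of *Hbb-y* above, did not. No paired analysis was run, for the reasons given with the processing. Each group has 1 array, which leaves no replicate to leave out. The arrays cannot resolve *Hbb-bh1* and *Lin28b*, which were at background.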
